A study of Mus musculus with 6 samples.

Results

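Ovaries of C57Bl/6J mouse pups at day 4 after birth were compared with ovaries of newborn pups (day 0, under 24 h after birth) on 3 of the 6 arrays of the series. These are the arrays whose titles name the comparison of day 4 with day 0, and the other 3 compared day 2 with day 0. Both groups are whole ovaries with no gene altered and no treatment, so every cell type of the organ contributes RNA, and fewer cells of a type cannot be told apart from less RNA per cell. On each array, day 4 RNA was labelled with Cy5 and day 0 RNA with Cy3. The 3 day 4 RNAs and the 3 day 0 RNAs of these arrays were separate samples, which the series text calls biological replicates. The labels do not say how many pups made up a sample. All 3 arrays have the same dye orientation, so age and dye cannot be told apart for a gene that takes up one dye better. The spotted cDNA clones come from a mouse gene set collected largely from embryos. Each value below is the log2 ratio of day 4 over day 0, taken as the mean of 4 repeats on the array, so that 1 is a 2-fold rise and -1 a 2-fold fall.

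In the newborn mouse ovary, oocytes lie in clusters that break apart during the first days of life. Each surviving oocyte becomes enclosed by a layer of flat granulosa cells and forms a primordial follicle, and the earliest follicles then begin to grow. The growing oocyte secretes factors that act on the granulosa cells, lays down the egg coat, and stores RNAs and proteins that the egg and early embryo use later.

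Arrays 1, 2 and 3 held values for 7775, 8272 and 5630 of 8272 probes, and on array 3 a failed area took out 2640 probes. Median mean log2 intensity was 9.57, 9.79 and 10.58, and the spread of the log2 ratios over probes (SD) was 0.42, 0.47 and 0.61. Across probes, Pearson's r was 0.752 between arrays 1 and 2, 0.511 between arrays 1 and 3, and 0.444 between arrays 2 and 3 (7775, 5270 and 5630 probes). Array 3 thus stood apart from the other two. Its day 0 RNA also served on array 3 of day 2. The oocyte markers Gdf9, Bmp15 and Oosp1 were measured and are described below, whereas Kit, Kitl, Amh and Foxl2 were not matched to a probe here. Of 12 genes written for the list of oocyte growth factors and egg coat, 4 were measured. The egg coat genes Zp1, Zp2 and Zp3 were not among them.

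Among probes called by limma, the rises were more numerous than the falls and larger in median. Of 8135 probes with a value on at least 2 arrays, limma called 133 higher at day 4 (1.63%) and 33 lower (0.406%), at an adjusted p under 0.05. At an unadjusted p under 0.05 there were 964 (11.9%) and 824 (10.1%). The 133 risers belonged to 56 named genes, with 66 probes that had no gene name, and their mean log2 ratios ran from 0.66 to 3.74 with a median of 1.77. The 33 probes that fell belonged to 30 named genes and 3 clones without a name. Their mean falls ran from 0.62 to 3.02 in size, with a median log2 ratio of -0.82. In all 166 the values had the same sign on every array that gave one, which a call from so few values nearly requires. Without array 1, 47 probes were called higher and 1 lower, and without array 2, 53 and 7. Without array 3, 613 were called higher and 524 lower, among them 132 of the 133 risers and 31 of the 33 probes that fell. With all 6 arrays in the fit, which brings in the spread of the day 2 arrays, 39 were called higher and 0 lower, with 407 and 349 at an unadjusted p under 0.05.

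**Figure D1:**
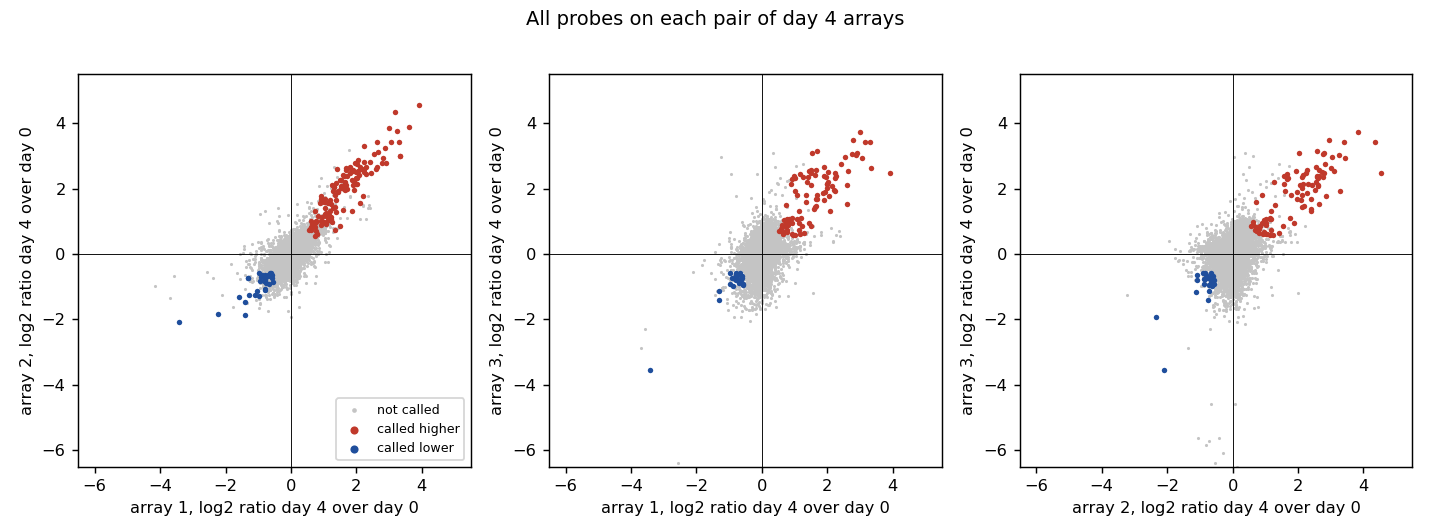
Log2 ratio of day 4 over day 0 for every probe, each panel setting a pair of the 3 arrays against each other; red points were called higher, blue points lower and grey points not called. The red points lie along the diagonal up to 4.55, while most blue points lie near -0.8, close to the grey cloud, and array 3 has a few points below -4 that the other arrays do not share.

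A count of 2-fold changes that uses no test also held more rises than falls. Of 5270 probes with values on all 3 arrays, 61 were at least 2-fold higher on every array (1.16%) and 2 were at least 2-fold lower on every array (0.038%). The 61 held 24 named genes and 29 probes without a name, and 59 of them were also called higher. At 1.5-fold the counts were 105 (1.99%) and 24 (0.455%). Positive on every array were 1271 (24.1%) and negative on every array 1063 (20.2%). Over the 3915 named genes, with 1 probe each, the order was the other way. There 773 were positive on every array with a value (19.7%) and 1303 negative (33.3%). An exact sign-flip test of a single gene over 3 arrays cannot go below p = 0.25, so the calls rest on the spread that limma pools over all probes.

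Growth factors and other proteins that the oocyte secretes were higher at day 4. Of 4 measured genes of that list, 3 were called higher, against 49 of 3915 named genes. All 4 had positive values on each array, against 19.7% of all named genes with positive values throughout. The gene lists here and below were written with earlier results of these data known, so their counts are not independent of those results. The median of the list was 1.96, with 1.73, 2.10 and 2.11 on arrays 1, 2 and 3, while the median over all 3915 named genes was -0.08. Gdf9, a growth factor by which the oocyte drives the growth of its follicle, had log2 ratios of 3.31, 3.42 and 3.42 on arrays 1, 2 and 3 at its brightest probe. That is a rise of 3.38 ± 0.10 (SE, n = 3, adjusted p = 0.000998), or 10.4-fold, and the arrays differed by little more than 0.1. Another Gdf9 probe had 2.90, 2.79 and 3.10 (2.93 ± 0.11, adjusted p = 0.00126). The last Gdf9 probe had 1.26, 1.43 and 2.74, higher on array 3 than on the others, and did not pass (1.81 ± 0.30, adjusted p = 0.0518).

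Bmp15, the closest relative of Gdf9 and also made by the oocyte, had 0.56, 1.43 and 1.16 and did not pass (1.05 ± 0.18, n = 3, adjusted p = 0.0585). All its values were positive, with array 1 the lowest. Oosp1, an oocyte secreted protein, had 0.69, 0.96 and 1.04 and rose 1.86-fold (0.90 ± 0.12, adjusted p = 0.0316). Its adjusted p was 0.213 without array 1 and 0.161 without array 2. Astl, the protease ovastacin that alters the egg coat after fertilisation, had 2.77, 2.77 and 3.06 and rose 7.31-fold (2.87 ± 0.11, adjusted p = 0.00126). Gdf9 and Astl stayed past the threshold when any 1 array was left out. With all 6 arrays in the fit Astl passed (adjusted p = 0.0103), whereas Oosp1 and Gdf9 did not (0.0639 and 0.0762). With scale normalization of the arrays none of the 4 listed genes and none of the 15 egg-stored genes below passed, and the adjusted p was 0.105 for Gdf9 and 0.104 for Astl at log2 ratios of 3.66 and 3.08.

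Many genes whose products are stored in the egg rose. Of 15 measured members, 7 were called higher and 0 lower, 13 had positive values on every array with a value, and the median was 1.40. The called members include Oas1d and Oas1e, close relatives whose clones can cross-hybridise, so the 7 calls are not all independent. The list was also written with earlier results of these data known. Over all 3915 named genes 49 were called higher and 19.7% were positive throughout. Without arrays 1, 2 and 3 in turn, 3 of 10, 4 of 9 and 12 of 14 tested members were called higher. Padi6, an enzyme of the arginine deiminase family that the egg needs for its cytoplasmic lattices, had 3.33, 3.01 and 2.63 and rose 7.93-fold (2.99 ± 0.16, n = 3, adjusted p = 0.00147, or 0.24 with all 6 arrays in the fit). H1f8, the oocyte's own linker histone, had 2.24, 2.61 and 2.33 and rose 5.25-fold (2.39 ± 0.12, adjusted p = 0.00147). In both genes every array showed a rise of more than 4-fold.

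The NLR family has several members whose transcripts belong to the oocyte. Nlrp14 had 3.92, 4.55 and 2.46 and rose 12.5-fold (3.64 ± 0.39, n = 3, adjusted p = 0.0166), with array 3 well below the others. Its adjusted p without array 1 was 0.1. Nlrp4f rose on the 2 arrays that measured it, with 1.36 and 1.44 (1.40 ± 0.13, adjusted p = 0.0252). Nlrp4a had 1.56, 2.20 and 0.87 and just missed the threshold (1.54 ± 0.25, adjusted p = 0.0518). Nlrp4b was positive on every array at all of its 3 probes, with means of 0.39 to 0.55, and none passed. The family thus ranged from a mean of 0.39 to 3.64 at the probes that stood for each gene.

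Genes of the 2'-5' oligoadenylate synthetase 1 family, best known as sensors of double-stranded RNA induced by interferon, were among the largest risers. Oas1d, a member found in oocytes, had 2.87, 3.25 and 3.02 and rose 8.27-fold (3.05 ± 0.12, n = 3, adjusted p = 0.00126). Oas1e had 3.33 and 2.98 on arrays 1 and 2 (3.16 ± 0.15, n = 2, adjusted p = 0.0033), and array 3 gave no value. Oas1c was called at 2 of its 3 probes, with 3.05, 3.43 and 2.92 at the first (3.13 ± 0.13, adjusted p = 0.00147) and 1.93 and 2.23 at the second (2.08 ± 0.15, adjusted p = 0.0113). Its brightest probe had 0.61 on array 2 and 3.01 on array 3 and did not pass (1.81 ± 0.58, n = 2, adjusted p = 0.182). The cDNA clones of such close relatives can cross-hybridise, so the members cannot be taken as independent measurements.

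Btg4, an adaptor that brings maternal mRNAs to the deadenylation machinery, rose at all 3 of its probes. The values were 1.44, 1.94 and 2.54 at the probe with the largest rise (1.97 ± 0.22, adjusted p = 0.0183), 1.03, 1.60 and 1.93 at the next (1.52 ± 0.19), and 0.76, 1.02 and 1.06 at the brightest (0.95 ± 0.11). At each probe array 1 was lowest and array 3 highest. Of the other members, Mos, the kinase that holds the mature egg in meiosis, had 0.74 and 0.69 (adjusted p = 0.0826), and Bcl2l10, a relative of Bcl2, had 0.63 and 1.13 (adjusted p = 0.0932). Ybx2, an RNA-binding protein of germ cells, was at 0.02 ± 0.16 and Cpeb1, a regulator of polyadenylation, at 0.14 ± 0.12. For both the values were mixed in sign.

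The sequences before the RefSeq transcription starts of 4 genes that rose are shown as examples, chosen among oocyte genes that the promoter table holds. Each covers the 200 bases before the start on the gene's strand (build GRCm38.p6), and capitals mark matches, on either strand, to the E-box CANNTG, bound by basic helix-loop-helix factors, or to GAAA, any 2 bases and GAAA again, the core of the interferon response element. The windows are H1f8 on the plus strand at chr6:115944731-115944930, Padi6 on the minus strand at chr4:140742644-140742843, Oosp1 on the minus strand at chr19:11691052-11691251 and Oas1c on the minus strand at chr5:120812515-120812714.
H1f8: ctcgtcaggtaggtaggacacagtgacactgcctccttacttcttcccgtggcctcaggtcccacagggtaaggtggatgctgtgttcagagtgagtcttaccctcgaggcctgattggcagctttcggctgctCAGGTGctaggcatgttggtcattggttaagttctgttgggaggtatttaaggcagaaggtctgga
Padi6: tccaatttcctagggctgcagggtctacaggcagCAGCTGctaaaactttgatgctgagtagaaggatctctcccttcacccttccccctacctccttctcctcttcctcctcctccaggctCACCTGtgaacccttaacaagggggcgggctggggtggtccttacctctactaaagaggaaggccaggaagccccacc
Oosp1: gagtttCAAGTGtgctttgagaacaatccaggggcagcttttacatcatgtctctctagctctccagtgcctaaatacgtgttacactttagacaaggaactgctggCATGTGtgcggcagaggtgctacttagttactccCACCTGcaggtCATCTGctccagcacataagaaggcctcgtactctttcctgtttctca
Oas1c: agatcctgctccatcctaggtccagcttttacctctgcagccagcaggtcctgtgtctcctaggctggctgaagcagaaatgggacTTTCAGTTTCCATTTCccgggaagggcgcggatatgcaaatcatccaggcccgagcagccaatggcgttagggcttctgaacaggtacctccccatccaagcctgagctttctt

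H1f8 held 1 E-box beginning 66 bases before the start, Padi6 2 and Oosp1 4, while the Oas1c window held none. Oas1c held 2 overlapping matches to the interferon element, beginning 114 and 108 bases before the start. An E-box is common in windows of this length: 58.2% of 32851 RefSeq starts held one, as did 62.5% of 56 starts of the 40 genes called higher that the table holds and 37.1% of 35 starts of 24 genes called lower. The interferon element was in 2.27% of all starts and in 2 of those 56. These matches describe the letters in the windows and were not tested. Gdf9, Oas1d and Nlrp14 had no entry in the table.

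Homeobox factors of the oocyte did not pass the test. Of 4 measured oocyte transcription factors 0 were called, 3 had positive values throughout, against 19.7% of all named genes, and the median was 0.62. Pou5f1, the germ cell and stem cell factor, had 0.40, 0.20 and 1.82 (0.81 ± 0.32, adjusted p = 0.227), a mean that rests on array 3. Obox1, an oocyte homeobox gene, had 0.30, 0.95 and 0.85 (0.70 ± 0.16, adjusted p = 0.092), and Obox5 had 0.12 and 0.98 (0.55 ± 0.24, n = 2, adjusted p = 0.279). Obox6 was near 0, with -0.05 and 0.20 (0.08 ± 0.14, n = 2, adjusted p = 0.789).

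Genes of meiotic prophase, a stage that the oocytes have passed or arrested in by birth, did not move together. Of 6 measured members, 2 were called higher, against 49 of all 3915 named genes, 0 were called lower, and the median was -0.03. This list, like the others, was written with earlier results of these data known, so the count is not independent of them. Those 2 are known for the repair of DNA: Exo1, an exonuclease of mismatch repair and recombination, had 1.98, 2.32 and 2.15 at its brightest probe (2.15 ± 0.11, n = 3, adjusted p = 0.00147) and 1.63, 2.12 and 1.43 at its other (1.73 ± 0.16, adjusted p = 0.0103). Slx4ip, a partner of a structure-specific nuclease, had 1.52, 2.07 and 2.12 (1.90 ± 0.15, adjusted p = 0.00611). Sycp3, a protein of the axis of paired chromosomes, had 0.01, 0.14 and -0.13 (0.01 ± 0.11, adjusted p = 0.975). Tex12, of the central element of the same structure, had -0.37, -0.55 and -0.45 (-0.45 ± 0.10, adjusted p = 0.092). Exo1 and Slx4ip lay above every other member on each array.

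Many of the largest rises belonged to genes less often cited for the ovary. Fbxw27, of an F-box family, had 3.17, 4.35 and 3.42 at its brightest probe and rose 12.5-fold (3.65 ± 0.24, n = 3, adjusted p = 0.0029), and its other probe had 2.23, 3.30 and 1.93 (2.49 ± 0.27). Ddias, named for suppressing apoptosis after DNA damage, had 2.42, 2.82 and 2.76 (2.67 ± 0.12, adjusted p = 0.00147). Zdhhc13, a palmitoyl transferase, had 2.03, 2.74 and 2.51 (2.43 ± 0.16, adjusted p = 0.0029). At these probes, the brightest for Fbxw27, the 3 genes were more than 4-fold higher on each array, whereas the other Fbxw27 probe was below that on array 3.

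The locus E330034G19Rik, which has only a clone name, rose at all 3 of its probes by means of 1.76 to 2.47. At the highest of them it had 1.68, 2.58 and 3.15 (2.47 ± 0.28, n = 3, adjusted p = 0.0199), low on array 1 and high on array 3. E330021D16Rik, another clone-named locus, had 1.67, 2.63 and 2.56 (2.28 ± 0.21, adjusted p = 0.0103). Rgs12, which turns off G-protein signals, had 1.68, 2.12 and 1.79 at the probe with the larger rise (1.87 ± 0.13, adjusted p = 0.00317) and 1.64 ± 0.13 at its other probe. Tef, a transcription factor of the PAR leucine zipper family, had 2.62, 2.65 and 1.54 at 1 probe (2.27 ± 0.24, adjusted p = 0.0166), while its other probes had means of 1.03 and -0.07 and did not pass. The adjusted p of that Tef probe was 0.105 without array 1.

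Among risers of moderate size, Pfkfb3, which sets the pace of glycolysis, had 0.93, 0.90 and 0.94, so that the arrays differed by 0.04 (0.93 ± 0.10, n = 3, adjusted p = 0.0163). Atp6v0a4, a subunit of the proton pump, had 0.82, 1.15 and 1.08 (1.02 ± 0.11, adjusted p = 0.0205), and its dimmer probe had a mean of -0.28. The next genes were chosen after their values were seen, for what they are known for. Zfp57, which protects imprints in the egg and embryo, had 1.20 and 1.14 (1.17 ± 0.13, n = 2, adjusted p = 0.0375). Tcl1, a proto-oncogene also active in the oocyte, had 1.08, 0.91 and 1.80 (1.26 ± 0.19, n = 3, adjusted p = 0.0463). Appl1, an adaptor on endosomes, had 1.13, 1.18 and 1.30 (1.20 ± 0.10, adjusted p = 0.00789).

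**Figure D2:**
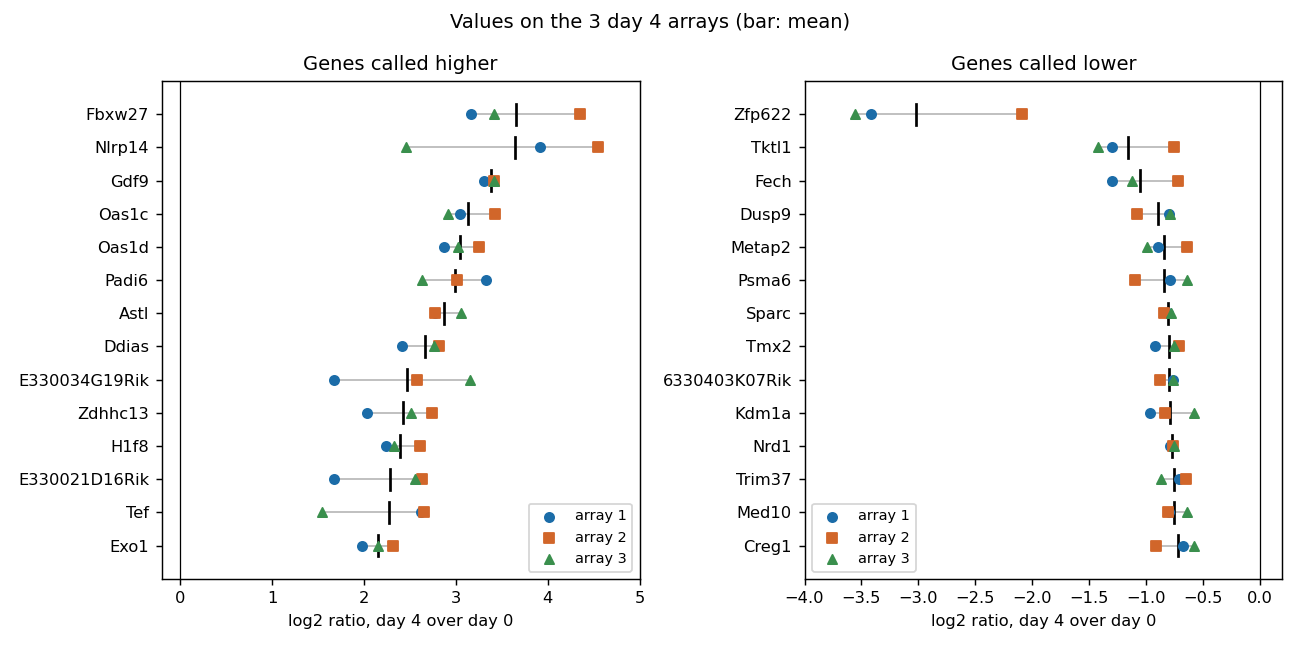
Log2 ratio of day 4 over day 0 on arrays 1, 2 and 3 (circle, square, triangle) with the mean as a bar, for 14 named genes called higher (left) and 14 called lower (right) that had values on all 3 arrays. The genes on the left lie between 1.54 and 4.55 on every array, while on the right only Zfp622 lies below -2 and the others lie between -1.42 and -0.58.

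Where the array carried several clones of a gene, they did not always give the same answer. Of the 56 named genes called higher, 24 had more than 1 probe: every probe was called in 6 of them, every probe was positive in 15, and 9 had a probe of opposite sign. Of the 30 named genes called lower, 7 had more than 1 probe, none had every probe called, and 4 had every probe negative. Spopl, an adaptor of a ubiquitin ligase chosen here after its values were seen, had 2.08, 2.41 and 1.32 at 1 probe and -0.55 and -0.07 at the other, where array 1 gave no value. The clones were not placed on the genome, so whether they share exons or cross-hybridise was not tested.

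**Figure D3:**
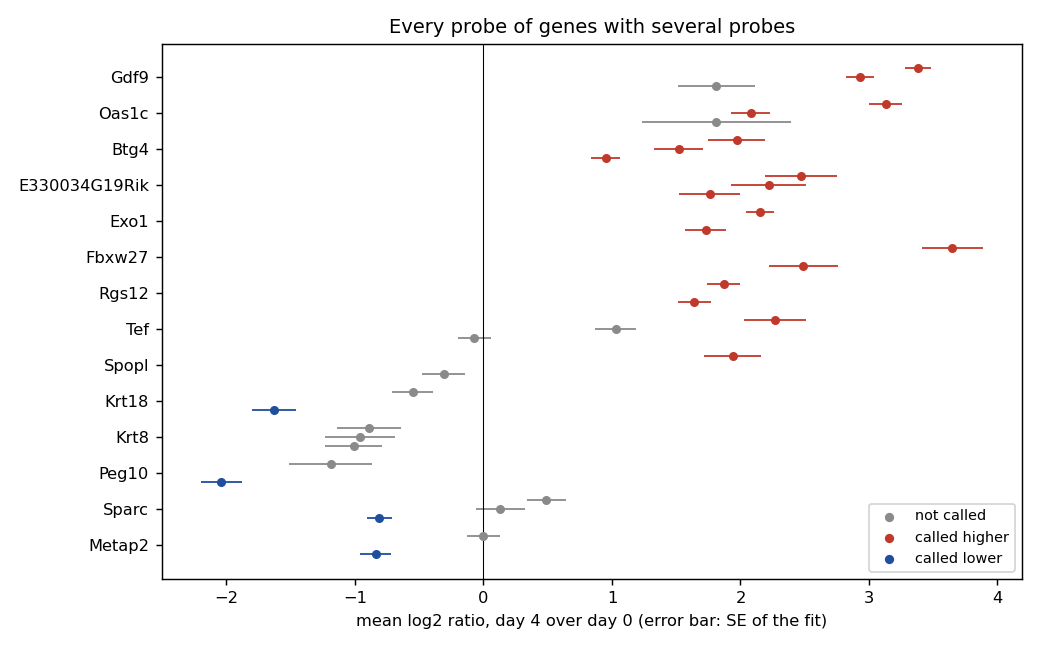
Mean log2 ratio of day 4 over day 0 with the SE of the fit for every probe of 14 genes that have several; red probes were called higher, blue lower and grey neither. The probes of Exo1, Rgs12, Btg4 and E330034G19Rik all lie above 0.9, whereas those of Tef, Spopl and Sparc lie on both sides of 0.

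Genes of the somatic cells around the oocyte showed positive values of moderate size. Of 4 measured granulosa cell genes, 0 were called by limma and all 4 were positive on every array with a value, with a median of 0.58. Among all named genes, 19.7% were positive throughout. Without array 3, 3 of the 4 were called higher. Ptges, a prostaglandin synthase, had 1.02 and 0.72 (0.87 ± 0.15, n = 2, adjusted p = 0.0748), and Cdkn1b, an inhibitor of the cell cycle that keeps primordial follicles at rest, had 0.88 and 0.62 (0.75 ± 0.14, n = 2, adjusted p = 0.0886). Dhh, the hedgehog ligand of granulosa cells, had 0.31, 0.53 and 0.41 (0.42 ± 0.10, n = 3, adjusted p = 0.105). Nr5a2, a nuclear receptor, had 0.46, 0.52 and 0.01 at its brightest probe (0.33 ± 0.14, adjusted p = 0.239) and 0.09 ± 0.11 at the other.

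Steroid synthesis and theca genes had values of mixed sign in all 7 measured members, with 0 called and a median of 0.12. Signs were mixed in 1839 of all 3915 named genes. Star, which carries cholesterol into mitochondria, had -0.17, 0.29 and 1.45 (0.52 ± 0.31, n = 3, adjusted p = 0.383), so that its mean rests on array 3. Cyp17a1, the enzyme that leads to androgens, had 0.38 and -0.14 (0.12 ± 0.18, n = 2, adjusted p = 0.734). Of 9 smooth muscle and stromal markers 0 were called and 3 were positive throughout (19.7% of all named genes were), with a median of 0.42 that was 0.07 without array 1. Tpm1, a tropomyosin, had 0.64, 0.77 and 0.53 and just missed the threshold (0.64 ± 0.11, adjusted p = 0.0518). Tpm2 had 0.75 and 0.67 (0.71 ± 0.13, n = 2, adjusted p = 0.0845), and Cnn2, a calponin, had 0.72, 0.18 and 0.61 (0.50 ± 0.14, adjusted p = 0.126). The other 6 markers were not positive throughout. Their means ran from -0.16 (Cnn3) to 0.45 (Mylk), with S100a6 at -0.08, Cnn1 at 0.01 and Pdgfra at 0.12.

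The called falls were smaller in median than the called rises, with a few large ones among imprinted genes. Of 7 measured imprinted fetal growth genes, 2 were called lower (against 0.406% of all probes), 5 were negative on every array with a value, and the median was -0.48. Among all named genes, 33.3% were negative throughout. Igf2, the fetal growth factor expressed from the paternal copy, had -2.35 and -1.94 on arrays 2 and 3 (-2.14 ± 0.16, n = 2, adjusted p = 0.0135), a 4.42-fold fall, and array 1 gave no value. Peg10, a retrotransposon-derived gene also expressed from the paternal copy, had -2.22 and -1.85 on arrays 1 and 2 (-2.04 ± 0.16, n = 2, adjusted p = 0.0137). Its dimmer probe had -1.77, -1.63 and -0.18, with array 3 near 0 (-1.19 ± 0.32, adjusted p = 0.122).

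H19, the noncoding RNA next to Igf2 that is expressed from the maternal copy, had -3.24 and -1.26 and did not pass (-2.25 ± 0.48, n = 2, adjusted p = 0.1). Grb10, an adaptor that restrains growth, had -0.42, -0.14 and -0.87 (-0.48 ± 0.16, n = 3, adjusted p = 0.175). The falls of Igf2 and Peg10 did not pass with all 6 arrays in the fit, at adjusted p = 0.105 and 0.287. Each rests on 2 arrays, so leaving out either of them leaves no test.

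Some genes of red blood cells and their precursors fell. Of 9 measured erythroid markers, 2 were called lower, 4 were negative on every array with a value, and the median was -0.57. Over all 3915 named genes 27 were called lower and 33.3% were negative throughout. Blvrb, a reductase abundant in red cells, had -1.59 and -1.33 (-1.46 ± 0.14, n = 2, adjusted p = 0.0276), a 2.75-fold fall. Fech, which inserts iron into heme, had -1.30, -0.72 and -1.12 and fell 2.06-fold (-1.05 ± 0.14, n = 3, adjusted p = 0.0361). Ermap, a membrane protein of red cells, had -1.26, -0.82 and -0.55 (-0.88 ± 0.16, adjusted p = 0.064), and Gata1, the erythroid transcription factor, had -0.43 and -0.71 (-0.57 ± 0.15, n = 2, adjusted p = 0.13). Hba-a1, an alpha globin, had 0.67 on array 2 and -1.64 on array 3 (-0.48 ± 0.56, adjusted p = 0.664). The remaining markers were also mixed in sign and not called: Tfrc, Alad, Cpox and Car2 had means of -0.87, -0.43, -0.22 and 0.00. Without array 1, 0 of 7 tested members were called, and Fech had an adjusted p of 0.326. How much blood each ovary sample held was not tested.

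Markers of vessels ranged from near 0 to about 2-fold lower. Of 5 vascular endothelial markers 1 was called lower and 3 were negative throughout, with a median of -0.44. Among all 3915 named genes 27 were called lower and 33.3% were negative throughout. Podxl, a sialomucin of endothelium and other cells, had -0.98 and -1.29 (-1.14 ± 0.15, n = 2, adjusted p = 0.0493). Pecam1, an adhesion protein between endothelial cells, had -0.51, -0.02 and -0.78 (-0.44 ± 0.16, adjusted p = 0.209), and Emcn, a sialomucin of veins and capillaries, had -0.58, -0.19 and -0.64 (-0.47 ± 0.13, adjusted p = 0.124). Cdh5, the cadherin of endothelium, was at 0 with 0.13 and -0.13 (0.00 ± 0.14, n = 2), and Esam, an adhesion molecule, had -0.26, -0.55 and 0.09 (-0.24 ± 0.15, adjusted p = 0.4). Laptm5, the only measured leukocyte marker, had -0.51 and -0.84 at its brightest probe (-0.68 ± 0.15, n = 2, adjusted p = 0.105).

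Keratins of the simple epithelium had negative means, and 1 probe was called. Of 6 genes in the epithelial list 0 were called at the probe that stands for them. Of the 6, 4 were negative throughout, against 33.3% of all named genes, and the median was -0.31. Krt18 fell at 1 of its 2 probes, with -1.39 and -1.87 (-1.63 ± 0.17, n = 2, adjusted p = 0.0328), while its brightest probe had -0.90, -0.56 and -0.18 (-0.55 ± 0.16, adjusted p = 0.136). Krt8, its filament partner, had -0.99, -1.66 and -0.22 (-0.96 ± 0.27, adjusted p = 0.129), and its other probes had means of -0.89 and -1.01. At the probes of Krt18 and Krt8 with 3 values, array 3 was nearest to 0. Krt7 had -0.48, -0.81 and 0.27 (-0.34 ± 0.22, adjusted p = 0.418), with array 3 positive. Cdh1, the epithelial cadherin that oocytes also carry, went the other way with 0.28, 0.32 and 0.54 (0.38 ± 0.11, adjusted p = 0.132).

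Extracellular matrix genes stayed near 0 as a list: of 10 measured genes 0 were called at the brightest probe, 9 had mixed signs, and the median was 0.03. Mixed signs were found in 1839 of all 3915 named genes. Sparc, a matrix protein of basement membranes, was called lower at a probe with -0.81, -0.84 and -0.78 (-0.81 ± 0.10, n = 3, adjusted p = 0.0258). Its brightest probe had 0.63 and 0.35 on arrays 2 and 3 (0.49 ± 0.15, n = 2, adjusted p = 0.166), so that the probes of Sparc disagree in sign.

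The largest fall that all 3 arrays shared was at the probe of Zfp622, a zinc finger protein. It had -3.42, -2.09 and -3.56 and fell 8.12-fold (-3.02 ± 0.30, n = 3, adjusted p = 0.0135), and its adjusted p was 0.0761 without array 1 and 0.331 with all 6 arrays in the fit. The only other probe at least 2-fold lower on every array was a clone with no gene name, at -3.70, -1.35 and -2.88 (adjusted p = 0.0515). Tktl1, a relative of the sugar-converting enzyme transketolase, had -1.30, -0.75 and -1.42 and fell 2.23-fold (-1.16 ± 0.16, adjusted p = 0.0363). Dusp9, a phosphatase that turns off MAP kinases, had -0.80, -1.08 and -0.79 (-0.89 ± 0.11, adjusted p = 0.0284). Neither Tktl1 nor Dusp9 passed without array 1, at adjusted p = 0.318 and 0.287.

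Of the other named genes that fell on 3 arrays, some had close values on each and others spread more widely. Nrd1, the protease nardilysin, had -0.79, -0.76 and -0.75 (-0.77 ± 0.10, n = 3, adjusted p = 0.0291). Kdm1a, a demethylase of histone tails, had -0.96, -0.83 and -0.58 (-0.79 ± 0.12, adjusted p = 0.0448), and Med10, a subunit of the Mediator complex, had -0.80, -0.81 and -0.64 (-0.75 ± 0.10, adjusted p = 0.0364). Tmx2, a thioredoxin-like membrane protein, Trim37, a ubiquitin ligase, Creg1, a secreted glycoprotein of lysosomes, Metap2, which trims the first methionine of proteins, and 6330403K07Rik fell by 0.80, 0.75, 0.72, 0.84 and 0.80 on the log2 scale. Metap2 had -0.89, -0.64 and -0.99, and Creg1 had -0.67, -0.91 and -0.58. A second Metap2 probe was near 0. Atp6v1e1, of the proton pump's outer part, had -0.61, -0.66 and -0.75 (-0.67 ± 0.10, adjusted p = 0.0442). Without array 1, 1 of the 33 probes that fell was still called. This was Igf2, which has no value on array 1, so none of its data were left out. None of the 23 falls with values on all 3 arrays was still called. Without array 2, 3 probes were: Zfp622, Tktl1 and Fech. Probes with values on only 2 arrays could not be tested without either of these.

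Genes with values on only 2 arrays made up 10 of the 33 called lower, and the following were chosen after their values were seen. Lcn2, a lipocalin that binds siderophores, had -1.28 and -1.25 (-1.27 ± 0.13, n = 2, adjusted p = 0.0305), and Gpx1, a glutathione peroxidase, had -1.11 and -1.16 (-1.13 ± 0.13, adjusted p = 0.04). Ctnnd1, the p120 catenin of cell junctions, had -1.11 and -1.26 at the called probe and -0.81, -0.40 and -1.04 at its other.

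Genes of general cell maintenance had slightly negative medians and few calls. Of 23 proteasome genes 1 was called lower and 0 higher, 15 were negative throughout, and the median was -0.26, set against a median of -0.08 over all named genes. Of 3915 named genes, 27 were called lower, and 33.3% were negative and 19.7% positive throughout. Psma6, a subunit of the core particle, had -0.79, -1.10 and -0.64 (-0.84 ± 0.13, n = 3, adjusted p = 0.0448). Of 25 chaperones 0 were called, 12 were negative throughout and 3 positive, and the median was -0.26. Cct4, a subunit of the cytosolic chaperonin, had -0.78 and -0.93 (-0.85 ± 0.14, n = 2, adjusted p = 0.0677) at its brightest probe and 0.64 ± 0.18 at the other. Hspa8, the constitutive Hsp70, stood far above its list with 2.42 and 1.39 (1.91 ± 0.28, n = 2, adjusted p = 0.0572).

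Of 32 translation factors and tRNA synthetases 0 were called, 17 were negative throughout and 3 positive, with a median of -0.34. Elongation factor 1 alpha 1 was the highest of them, with 2.37 and 1.41 (1.89 ± 0.26, n = 2, limma adjusted p = 0.0518). Of 30 cytosolic ribosomal proteins 0 were called and 15 were negative throughout, with a median of -0.19. Mitochondrial respiration genes had a median of -0.22 (21 genes, 9 negative throughout, 0 called), and splicing and nuclear ribonucleoproteins had -0.20 (19 genes, 8 negative throughout, 0 called). Hnrnpc, which packages nascent RNA, had -0.67, -0.53 and -0.62 at its brightest probe (-0.61 ± 0.10, adjusted p = 0.052), while its other probes had means of -0.10 and -0.30. Across all named genes, 1303 of 3915 were negative throughout and 773 positive throughout, which is 33.3% and 19.7%.

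Glycolysis genes split. Of 15 measured genes 1 was called higher, Pfkfb3, 8 were negative throughout, and the median was -0.33. Of 3915 named genes, 49 were called higher, and 33.3% were negative and 19.7% positive throughout. Ldha, which makes lactate, had -0.46, -0.50 and -0.52 (-0.49 ± 0.10, n = 3, adjusted p = 0.0747). Pdk1, which restrains pyruvate oxidation, had -0.80, -0.53 and -1.07 (-0.80 ± 0.13, adjusted p = 0.0563), and Aldoa, an aldolase, had -1.36 and -0.56 (-0.96 ± 0.23, n = 2, adjusted p = 0.117). Of 45 genes of the cell cycle and DNA replication 0 were called, 9 were positive and 9 negative throughout, and the median was -0.07. Ccnd3, a cyclin of G1, had -0.72, -1.37 and -0.67 (-0.92 ± 0.17, adjusted p = 0.0651), and Rrm1, of ribonucleotide reductase, had -0.57, -0.46 and -0.70 (-0.58 ± 0.11, adjusted p = 0.0665). Tacc3, of the mitotic spindle, had 0.83 and 0.68 (0.76 ± 0.14, n = 2, adjusted p = 0.0792).

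Cholesterol synthesis genes had a median of 0.08 (10 genes, 0 called). Hmgcs1, an early enzyme of the pathway, had 1.13, 1.19 and 0.20 at its brightest probe (0.84 ± 0.22, adjusted p = 0.109), and Fdft1, which makes squalene, had 0.57, 0.32 and 0.94 (0.61 ± 0.14, adjusted p = 0.0987). Of 51 solute carriers and ion pumps 2 were called higher, among them Atp6v0a4, and 1 lower, Atp6v1e1, with a median of -0.14. The 6 measured histone genes had 1 called higher, H1f8, and a median of -0.19. Beside these lists, 49 of all 3915 named genes were called higher and 27 lower.

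**Figure D4:**
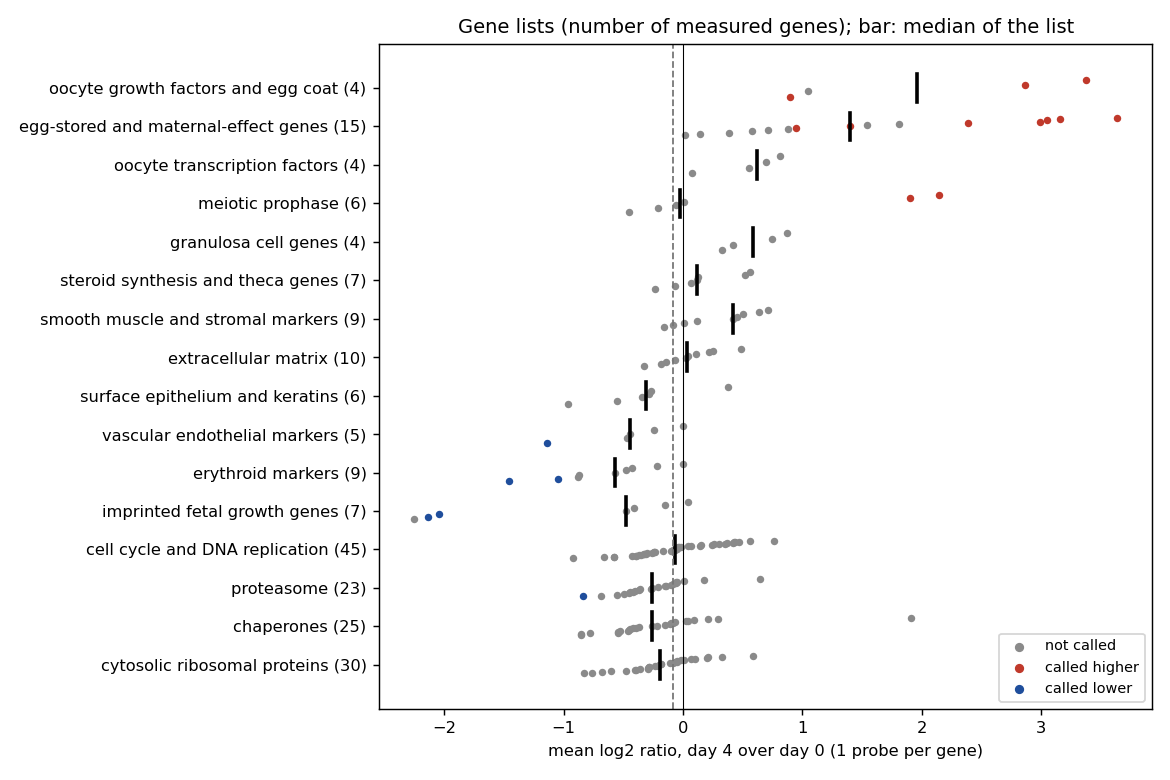
Mean log2 ratio of day 4 over day 0 for each measured gene (1 probe per gene) in 16 gene lists, with the list median as a black bar, the median of all named genes (-0.08) as a dashed line, and called genes in colour. The oocyte lists reach above 3 with most of the red points, whereas erythroid, vascular and imprinted genes lie mostly left of the dashed line.

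Of 8 measured genes of TGF-beta and activin signalling 1 was called higher, the ligand Gdf9, against 49 of all 3915 named genes, and the median was 0.24. Tgfb2, another ligand, had 0.25 and 0.57 (0.41 ± 0.15, n = 2, adjusted p = 0.221), and Bmpr1a, a receptor, had -0.62 and -0.48 at its brightest probe (-0.55 ± 0.14, n = 2, adjusted p = 0.124). Of 5 Notch genes 0 were called. Jag1, the Notch ligand that oocytes show to the cells around them, had -1.06 on array 2 and -5.62 on array 3 (-3.34 ± 1.08, n = 2, adjusted p = 0.184), so that its mean rests on array 3. On the day 2 arrays Jag1 had -0.39, 0.78 and -5.57, and array 3 of both ages used the same day 0 RNA. Whether that RNA accounts for the low values was not tested. Heyl, a target of Notch, had 1.13 and 0.49 (0.81 ± 0.20, n = 2, adjusted p = 0.124).

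Immediate early genes, which respond to handling of tissue, had a median of 0.02 with 0 of 9 called. Zfp36, which destabilises cytokine mRNAs, had 1.04, 1.73 and 2.68 and was more than 2-fold higher on each array without passing (1.82 ± 0.30, n = 3, adjusted p = 0.0529), and Btg2, an antiproliferative gene, had -0.76, -0.43 and -0.45 (-0.55 ± 0.12, adjusted p = 0.0841). Of 6 apoptosis genes 0 were called and the median was 0.07. Diablo, which relieves the inhibition of caspases, had -0.48, -0.51 and -0.46 (-0.48 ± 0.10, n = 3, adjusted p = 0.076), and Birc2, an inhibitor of apoptosis, had 0.39 and 0.85 (0.62 ± 0.17, n = 2, adjusted p = 0.144).

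Set beside the arrays of day 2 against day 0, several of these genes were further from 0 at day 4. H1f8 had 0.60, 0.88 and 0.67 at day 2 and Nlrp14 had 2.11, 2.06 and 1.18. The brightest Gdf9 probe had -0.45, 2.49 and 1.86, and Igf2 had -1.84, -0.80 and -0.62. The difference between the ages for H1f8 was 1.68 (limma adjusted p = 0.356). Through day 0 the difference between day 4 and day 2 was called for 0 of 8135 probes by limma, with 215 at an unadjusted p under 0.05 (2.64%). This fit treats the arrays as independent, although the third arrays of both ages share their day 0 RNA. Of the day 2 arrays, the first and the second had opposite patterns (Pearson's r -0.675 over 8272 probes). With the sign of either turned the count called was also 0, with 931 and 721 at an unadjusted p under 0.05. Which genes change between day 2 and day 4 could therefore not be told from these arrays.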

How the data were processed

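Per the file headers, the deposited files of the authors give 4 repeat log2 ratios of a probe on each array, with the later age in Cy5, beside their mean, a mean log2 intensity and flags. The authors used R 1.7.1 per the submitters' processing notes, and for their background correction and normalization the method is not given in the sources used here. Flags, which the headers do not define, and the deposited mean served only for alternatives.

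The 4 repeats of a probe were averaged on each array, and nothing more was normalized. The 3 day 4 arrays were fitted alone against 0 with limma 3.58.1 (R 4.3.3, no trend, not robust, prior of 3.53 degrees of freedom), for probes with at least 2 values, 2-sided, with Benjamini-Hochberg adjustment over 8135 probes and a threshold of 0.05. SEs come from this fit (median 0.13), and precision is limited by how few arrays there are. The day 2 arrays entered only the alternative fit and the difference between the ages.

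Clone names became gene names through a RefSeq gene table (1777 probes), by hand (381) or by annotation (2729), and 3385 probes had none. In lists the brightest probe stood for a gene. Of 30 lists, written by gene or by name pattern, 27 had at least 3 measured genes; kinases and a mitochondrial protein that the ribosomal pattern had matched were taken out. Named genes are up to 15 per direction by mean among calls on 3 arrays, up to 15 by the value nearest 0, up to 4 per list by that value, and 15 genes of ovarian interest where measured. Most but not all of them are printed, and a few called genes are not reported here. Members, lists, rule and the choice of fitting the day 4 arrays alone were made with earlier results of these data known. The code was tested on simulated data.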

Additional observations from a re-analysis of the deposited data

How the results depend on the processing

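Every alternative called some probes higher, not always the same ones, and 2 alternatives called 0 lower. With all 6 arrays in the fit 39 probes were called higher and 0 lower (407 and 349 at an unadjusted p under 0.05), with scale normalization 36, of which 24 were among the 133, and 0 (916 and 783 unadjusted), with values on all 3 arrays only 66 and 6, and with the median of the repeats 79 and 14. Median centring left 20 lower. Repeats kept apart with the array as block gave 926 and 880, and a prior with trend and robust fitting 263 and 100. Leaving out 1 array gave 47 to 613 higher and 1 to 524 lower. The cause of these shifts was not tested. Probes at least 2-fold higher on each array numbered 105 at 1.5-fold and 65 to 138 without 1 array. Those lower numbered 24 at 1.5-fold, 1 without flagged values and 6 to 14 without 1 array.

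List medians moved as follows: without flagged values erythroid markers had -0.72, chaperones -0.37, splicing -0.32 and solute carriers -0.18. With all probes of a gene averaged, extracellular matrix had -0.06, chaperones -0.14 and translation factors -0.24, and with median centring the cell cycle had -0.08. Without 1 array, over members with a value on either remaining array, egg-stored genes ran from 0.89 to 1.44, smooth muscle 0.07 to 0.54, matrix -0.03 to 0.08, erythroid -0.90 to -0.57, cell cycle -0.09 to -0.05, chaperones -0.37 to -0.22, translation -0.31 to -0.27, splicing -0.37 to -0.17 and solute carriers -0.14 to -0.10. Over members with values on both remaining arrays, egg-stored genes had 1.15 to 1.67 and erythroid markers -0.67 to -0.48. Of 117 named genes, 1 changed sign: Sycp3 had -0.01 with median centring and -0.06 to 0.08 without 1 array. Each log2 ratio already pairs day 4 with day 0 within an array, and the main fit tested these ratios against 0. Beyond this, no paired analysis was possible because a block by replicate number over the day 4 arrays leaves nothing to test. For the difference between day 4 and day 2, such a block was not tested.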

Other observations

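Array 3 held 9 probes with a log2 ratio below -4, array 1 held 1 and array 2 held 0. Jag1, among the 9, also had -5.57 on array 3 of day 2, which used the same day 0 RNA. Besides Jag1, 2 of the 9 have a gene name: Nin, a centrosomal protein, had -0.66 on array 2 and -4.59 on array 3, and Rprd1b, a regulator of RNA polymerase, had -0.40 and -5.62. Neither had a value on array 1. Ovgp1, an oviduct glycoprotein and thus a marker of tissue beside the ovary, had 0.46, 1.16 and 2.16 on arrays 1, 2 and 3 (1.26 ± 0.31, SE, n = 3, limma adjusted p = 0.104), while Cldn7, the other measured duct marker, had -0.03, 0.10 and -0.14. Of the fat markers, Lpl had -0.21, -0.32 and -0.07 and Plin1 had -0.14, -0.11 and 0.01.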
